A study of Mus musculus with 6 samples.

Results

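The genes described here are 34 interferon-stimulated genes, a list of antiviral effectors, interferon-inducible GTPases, transcription factors and nucleic acid sensors whose transcription is known to be raised by interferons. Each gene was represented by the probe set of highest mean over all 6 arrays among those annotated to that gene alone. By this rule 32 of the 34 genes had a probe set, of 18193 genes on the array, and all 32 were among the 12571 genes tested, with a level above the filter (the 40th percentile of the array) on every array. Isg15, a ubiquitin-like protein attached to other proteins, shares its probe set with another gene, and Ifi44 has none in the annotation used, so neither was analysed here. The list holds 10 type I effectors (9 tested), 5 GTPases, 3 transcription factors, 5 nucleic acid sensors and 11 other effectors and regulators (10 tested).

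The cells were CD8 T cells sorted into Eomes+ and Eomes- fractions, with 3 arrays of each, by the GFP reporter of the T-box transcription factor Eomes that male C57BL/6 Eomes-GFP mice carry. All mice bore MCA-205 tumours, a transplanted fibrosarcoma, and all had received both antibodies: aOX40, against a costimulatory receptor, at 250 ug on days 12 and 16, and aCTLA-4, against an inhibitory receptor, at 200 ug on days 12, 14 and 16. Treatment began at a tumour size of 50 to 80 mm2, and tumours were taken on day 19. Untreated mice were not analysed here. The series describes 3 independent experiments without tying an array to an animal or an experiment, so a p-value here reflects only how these samples vary, which may be technical, and the few arrays limit precision. Values are log2 microarray signals, differences are Eomes+ minus Eomes-, and levels are compared within a probe set only. The 3 values of a fraction are always given in the order of replicate numbers 1, 2 and 3.

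Type I interferons signal through the receptor of Ifnar1 and Ifnar2, whose kinases activate the complex ISGF3. Stat2 and Irf9 are subunits of this complex, which binds the interferon-stimulated response element in target promoters. Interferon gamma, a main product of activated CD8 T cells, signals through Ifngr1 and Ifngr2 to the gamma-activated site. The Ifit, Oas and Mx genes are classical targets of type I interferon, and the Gbp and Irg GTPases answer strongly to interferon gamma, although many of these genes answer to both.

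The sort was first checked on its own gene. Eomes had 10.38, 9.86 and 8.38 log2 in Eomes+ cells, against 6.85, 6.88 and 5.42 log2 in Eomes- cells, a difference of 3.15 log2 (SE 0.64, limma unadjusted p = 0.00205), and all Eomes+ arrays lay above all Eomes- arrays. After adjustment over all genes it did not pass (limma adjusted p = 1.00), and it passed with array weights (limma adjusted p = 0.0273) and with other-cell markers as a covariate (0.0248), among other fits. Cd8a had 13.05, 12.83 and 11.95 log2 in Eomes+ cells, against 13.48, 13.55 and 12.56 log2 in Eomes- cells, and Cd3e, a chain of the T cell receptor complex, had 12.89, 12.40 and 11.78 log2 in Eomes+ cells, against 12.93, 12.76 and 11.84 log2 in Eomes- cells. These CD8 T cell genes were measured above the filter on every array, and both arrays of number 3 stood apart from the other 4. All 10 tested T cell markers (of 12) were lower on both number 3 arrays than on the other 4, with a list mean of 12.09, 11.87 and 10.81 log2 in Eomes+ cells and 12.23, 12.23 and 10.94 log2 in Eomes- cells. All 13 tested macrophage markers (of 14) were higher on both, with means of 8.43, 9.98 and 10.98 log2 in Eomes+ cells and 8.09, 9.21 and 10.91 log2 in Eomes- cells. The same held for all 11 tested tumour or fibroblast markers (of 12), with means of 9.43, 11.19 and 11.98 log2 in Eomes+ cells and 9.37, 10.41 and 12.11 log2 in Eomes- cells. Array 2 of each fraction lay between arrays 1 and 3 on both of these lists. Both number 3 arrays were also above the other 4 for 3 of 3 neutrophil, 2 of 6 dendritic cell, 1 of 4 endothelial and 0 of 4 B cell markers tested. In such bulk samples, fewer cells of a type and less RNA per cell cannot be told apart. The 3' minus 5' signal of the Gapdh control, a sign of RNA quality, was 1.88, 1.77 and 1.55 log2 in Eomes+ cells and 1.54, 1.07 and 1.11 log2 in Eomes- cells. All Eomes+ values of this control thus lay above all Eomes- values. For the Actb control the values were 0.08, 0.17 and 0.13 log2 in Eomes+ cells and 0, 0.05 and 0.11 log2 in Eomes- cells, with overlap. What part RNA quality has in the differences between fractions was not tested.

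Most of the interferon-stimulated genes had a slightly higher mean in Eomes+ cells, and none passed the test. The mean was higher for 28 of 32 and lower for Bst2, Dhx58, Mx2 and Isg20, where 47.4% of all genes tested had a higher mean. The median difference was 0.17 log2 (quartiles 0.06 and 0.36), beside -0.02 log2 over all genes. Means of cell type markers were uneven between the fractions as well: the mean was higher in Eomes+ cells for 22 of 24 macrophage and tumour or fibroblast markers (median 0.27 log2) and 4 of 4 endothelial markers (median 0.68 log2), and lower for 8 of 10 T cell markers (median -0.14 log2). None of these markers passed the test either, and their part in the difference of the interferon-stimulated genes was tested only with the markers of other cells as a covariate, which gave a median of 0.19 log2. The largest differences were those of Oasl2 (1.20 log2), Oasl1 (0.72 log2), Ifi204 (0.67 log2) and Oas2 (0.62 log2), the 4 members at least 0.5 log2 higher, a size that 6.36% of all genes reached.

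With limma and adjustment over all 12571 genes, 0 of 32 members passed at an adjusted p under 0.05, and 0% of all genes did; every member had an adjusted p of 1.00. At an unadjusted p under 0.05 there were 0 members, against 3.25% of all genes. The groups did not overlap for 2 members that were higher in Eomes+ cells, Ifit1 and Irf9 (3.05% of all genes), and for 0 members that were lower (4.66%). For 25 of the 32 members the difference was smaller than the larger SD of the 2 fractions (83.1% of all genes).

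The difference was not the same at each replicate number. Between arrays of number 1, 30 of 32 members were higher in Eomes+ cells (48.8% of all genes), with a median difference of 0.50 log2. Between arrays of number 2, 24 of 32 were higher (47.9% of all genes), with a median of 0.24 log2. Between arrays of number 3 it was 14 of 32 (47.3% of all genes), with a median of -0.05 log2. The mean level over the 32 members was 10.18, 9.99 and 10.05 log2 in Eomes+ cells, and 9.67, 9.73 and 10.15 log2 in Eomes- cells. Array 3 of Eomes- cells was thus the one Eomes- array at the level of the Eomes+ arrays. Within all 3 numbers, 13 members were higher in Eomes+ cells (14% of all genes) and 1, Bst2, was lower (17.3% of all genes).

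**Figure D1:**
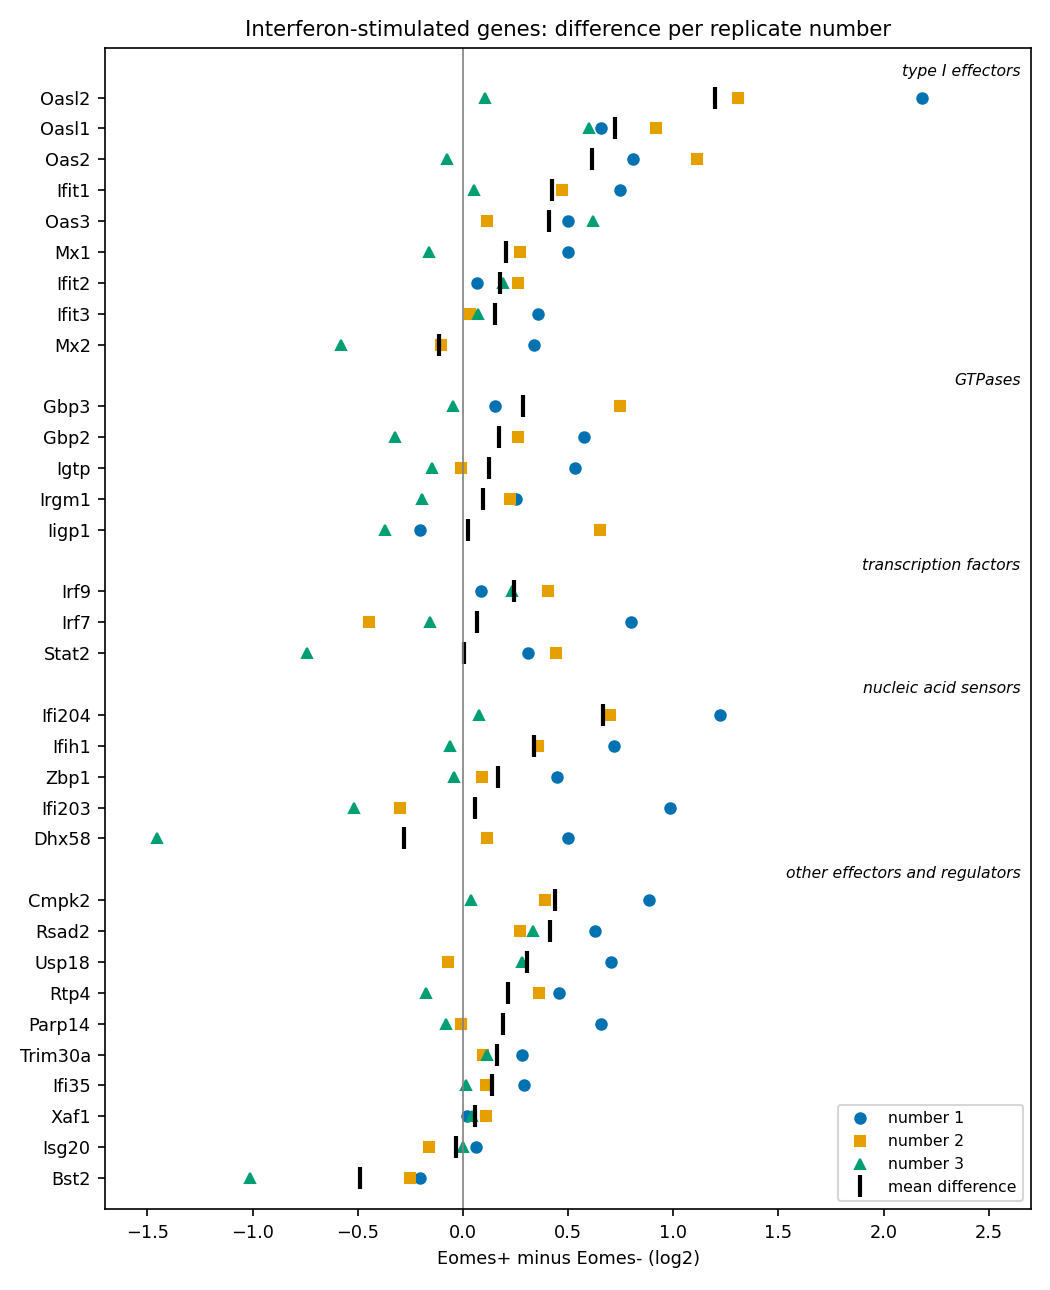
Difference between the Eomes+ and the Eomes- array of the same replicate number (log2, horizontal axis) for each of the 32 tested interferon-stimulated genes, grouped by role. Circles, squares and triangles are numbers 1, 2 and 3, and the black bar is the mean difference. Of the triangles 14 of 32 lie above 0, of the circles 30 of 32.

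Promoters were searched for the response elements of both pathways. RefSeq promoter windows of the mouse build GRCm38.p6, from 250 bases before to 50 bases after the annotated start site, were matched by symbol for 24 of the 34 members. The core of the interferon-stimulated response element (GAAANNGAAA on either strand, overlapping matches kept) was found in 14 of these 24 (58.33%), and in 1079 of 27025 genes with a window (3.99%). The gamma-activated site (TTCNNNGAA on either strand, which reads the same on both) was found in 5 of 24 (20.83%: Bst2, Ifi35, Ifit2, Igtp and Isg20) and in 2582 of 27025 (9.55%). Bst2 and Igtp held both motifs. These are matches of letters, and no binding was measured.

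The windows below are shown 5′ to 3′ on the gene's own strand with the response element core in capitals. They are the 5 tested members of smallest unadjusted p whose window holds the core, followed by the GTPase Igtp, which was chosen after its values were seen as the GTPase with both motifs. Their positions are chr19:34640639-34640938 (plus strand) for Ifit1, chr12:26456403-26456702 (minus strand) for Rsad2, chr2:62646206-62646505 (minus strand) for Ifih1, chr5:120777610-120777909 (minus strand) for Oas3, chr8:71537423-71537722 (minus strand) for Bst2 and chr11:58199306-58199605 (plus strand) for Igtp.
Ifit1: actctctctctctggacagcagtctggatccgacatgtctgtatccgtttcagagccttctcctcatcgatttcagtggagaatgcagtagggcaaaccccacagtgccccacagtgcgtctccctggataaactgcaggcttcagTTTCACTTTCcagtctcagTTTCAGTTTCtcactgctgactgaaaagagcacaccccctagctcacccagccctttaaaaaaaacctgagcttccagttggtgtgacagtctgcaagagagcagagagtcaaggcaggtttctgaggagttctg
Rsad2: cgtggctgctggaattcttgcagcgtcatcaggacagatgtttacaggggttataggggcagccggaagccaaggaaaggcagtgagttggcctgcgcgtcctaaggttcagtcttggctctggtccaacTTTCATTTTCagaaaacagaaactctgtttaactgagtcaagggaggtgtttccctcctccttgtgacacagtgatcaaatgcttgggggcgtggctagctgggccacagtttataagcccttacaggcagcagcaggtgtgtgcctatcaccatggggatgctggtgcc
Ifih1: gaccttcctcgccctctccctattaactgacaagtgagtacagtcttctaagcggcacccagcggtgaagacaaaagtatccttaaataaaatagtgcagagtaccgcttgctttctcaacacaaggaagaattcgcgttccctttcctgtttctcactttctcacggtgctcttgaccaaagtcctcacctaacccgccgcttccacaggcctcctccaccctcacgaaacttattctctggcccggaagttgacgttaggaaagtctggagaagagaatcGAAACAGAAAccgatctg
Oas3: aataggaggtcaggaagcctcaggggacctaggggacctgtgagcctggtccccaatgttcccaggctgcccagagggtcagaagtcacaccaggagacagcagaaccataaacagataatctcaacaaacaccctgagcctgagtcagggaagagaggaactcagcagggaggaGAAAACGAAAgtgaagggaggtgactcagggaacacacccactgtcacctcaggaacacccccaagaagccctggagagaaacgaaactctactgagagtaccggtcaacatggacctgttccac
Bst2: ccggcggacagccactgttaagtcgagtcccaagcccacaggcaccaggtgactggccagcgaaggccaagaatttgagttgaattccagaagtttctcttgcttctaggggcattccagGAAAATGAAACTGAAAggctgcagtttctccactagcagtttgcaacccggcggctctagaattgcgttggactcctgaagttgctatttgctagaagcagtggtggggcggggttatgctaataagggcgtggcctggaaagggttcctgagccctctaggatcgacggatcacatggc
Igtp: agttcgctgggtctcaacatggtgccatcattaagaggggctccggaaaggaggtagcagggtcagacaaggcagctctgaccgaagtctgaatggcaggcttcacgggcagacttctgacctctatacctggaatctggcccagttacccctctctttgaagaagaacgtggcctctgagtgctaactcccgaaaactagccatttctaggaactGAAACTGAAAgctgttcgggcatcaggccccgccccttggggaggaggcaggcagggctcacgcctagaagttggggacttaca

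The core was present in all 4 GTPases with a window (Gbp2, Gbp3, Igtp and Irgm1), where it lay between -59 and -15 bases from the start site. Among type I effectors it was in 4 of 7 (Ifit1, Ifit3, Isg15 and Oas3), between -156 and -57 bases. Ifit1 holds 2 copies, on the strand opposite to the gene, at -104 to -95 and at -85 to -76. The capitals of Bst2 are 2 overlapping copies, and its gamma-activated site overlaps the first of them. Both sensors with a window held the core, and it lay downstream of the start site in Ifih1, at 32 to 41 bases. It was in 1 of 3 transcription factors (Stat2) and in 3 of 8 other effectors (Bst2, Rsad2 and Trim30a). The 5 promoters of tested effectors and sensors shown therefore carry the core at different distances from the start, and in Eomes+ cells 4 of these genes had a higher mean and Bst2 a lower one.

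**Figure D2:**
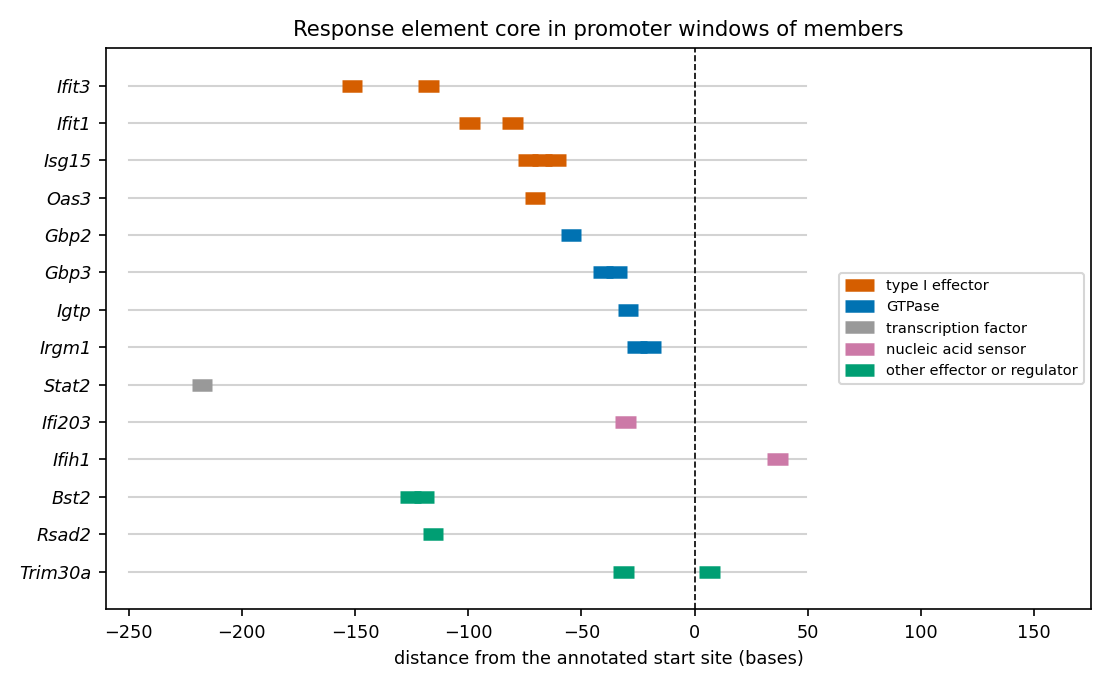
Position of the response element core (coloured boxes, by role) in the promoter windows of the 14 members that hold it. The horizontal axis is the distance from the annotated start site in bases, the grey lines are the windows, and the dashed line is the start site. The boxes of the 4 GTPases lie between -59 and -15 bases.

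Of the 9 type I effectors tested, 8 had a higher mean in Eomes+ cells, with a median difference of 0.41 log2, which was 0.23 log2 without Eomes+ replicate 1 and 0.24 log2 without Eomes- replicate 3. Oasl2, Oasl1 and Oas2 had the largest differences, and Ifit1 the smallest p. Oasl2, a ubiquitin-like member of the oligoadenylate synthetase family, had 10.60, 10.06 and 10.91 log2 in Eomes+ cells, against 8.42, 8.75 and 10.80 log2 in Eomes- cells. All Eomes+ arrays and Eomes- array 3 were high, and Eomes- arrays 1 and 2 were low, so the groups overlapped. The difference was 1.20 log2 (SE 0.64), or 2.30-fold, and it was 2.18, 1.31 and 0.11 log2 at numbers 1, 2 and 3 (limma unadjusted p = 0.104). Oasl1, which in mice restrains translation of Irf7, had 7.98, 8.02 and 8.73 log2 in Eomes+ cells, against 7.33, 7.10 and 8.13 log2 in Eomes- cells. Within each number the Eomes+ array was higher, by 0.60 to 0.92 log2, and both number 3 arrays were the highest of their fraction. Its difference was 0.72 log2 (SE 0.37, limma unadjusted p = 0.0968).

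Oas2 and Oas3 make the oligoadenylates that activate RNase L. Oas2 had 7.586, 8.004 and 7.938 log2 in Eomes+ cells, against 6.778, 6.890 and 8.015 log2 in Eomes- cells. The pattern resembled that of Oasl2: Eomes- arrays 1 and 2 were low and Eomes- array 3 was at the level of the Eomes+ arrays, with a difference of 0.62 log2 (SE 0.39, limma unadjusted p = 0.161). Oas3 had 10.265, 9.816 and 9.619 log2 in Eomes+ cells, against 9.765, 9.701 and 9.002 log2 in Eomes- cells. Here the number 3 arrays were the lowest of each fraction, and the Eomes+ array was the higher one at every number, by 0.12 to 0.62 log2.

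The Ifit proteins bind viral RNA and block its translation. Ifit1 had 11.35, 11.30 and 11.29 log2 in Eomes+ cells, against 10.60, 10.82 and 11.24 log2 in Eomes- cells. The 3 Eomes+ arrays lay close together (SD 0.03) and above all Eomes- arrays, and the difference was 0.42 log2 (SE 0.19, limma unadjusted p = 0.065). Ifit2 had 10.59, 10.36 and 10.53 log2 in Eomes+ cells, against 10.52, 10.09 and 10.34 log2 in Eomes- cells, and Ifit3 had 11.90, 11.82 and 11.99 log2 in Eomes+ cells, against 11.55, 11.79 and 11.92 log2 in Eomes- cells. The fractions overlapped for both, and the Eomes+ array was higher at each number.

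The Mx genes encode dynamin-like antiviral GTPases, of which Mx1 is disrupted in many laboratory mouse strains. Mx1 had 10.31, 10.10 and 9.10 log2 in Eomes+ cells, against 9.81, 9.83 and 9.26 log2 in Eomes- cells, with both number 3 arrays below the other 4 and a difference of 0.20 log2 (SE 0.37, limma unadjusted p = 0.598). Mx2, the type I effector with a lower mean, had 7.22, 6.21 and 6.55 log2 in Eomes+ cells, against 6.88, 6.32 and 7.13 log2 in Eomes- cells. The fractions overlapped for both genes, and the Mx2 difference was -0.12 log2 (SE 0.36, limma unadjusted p = 0.755).

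**Figure D3:**
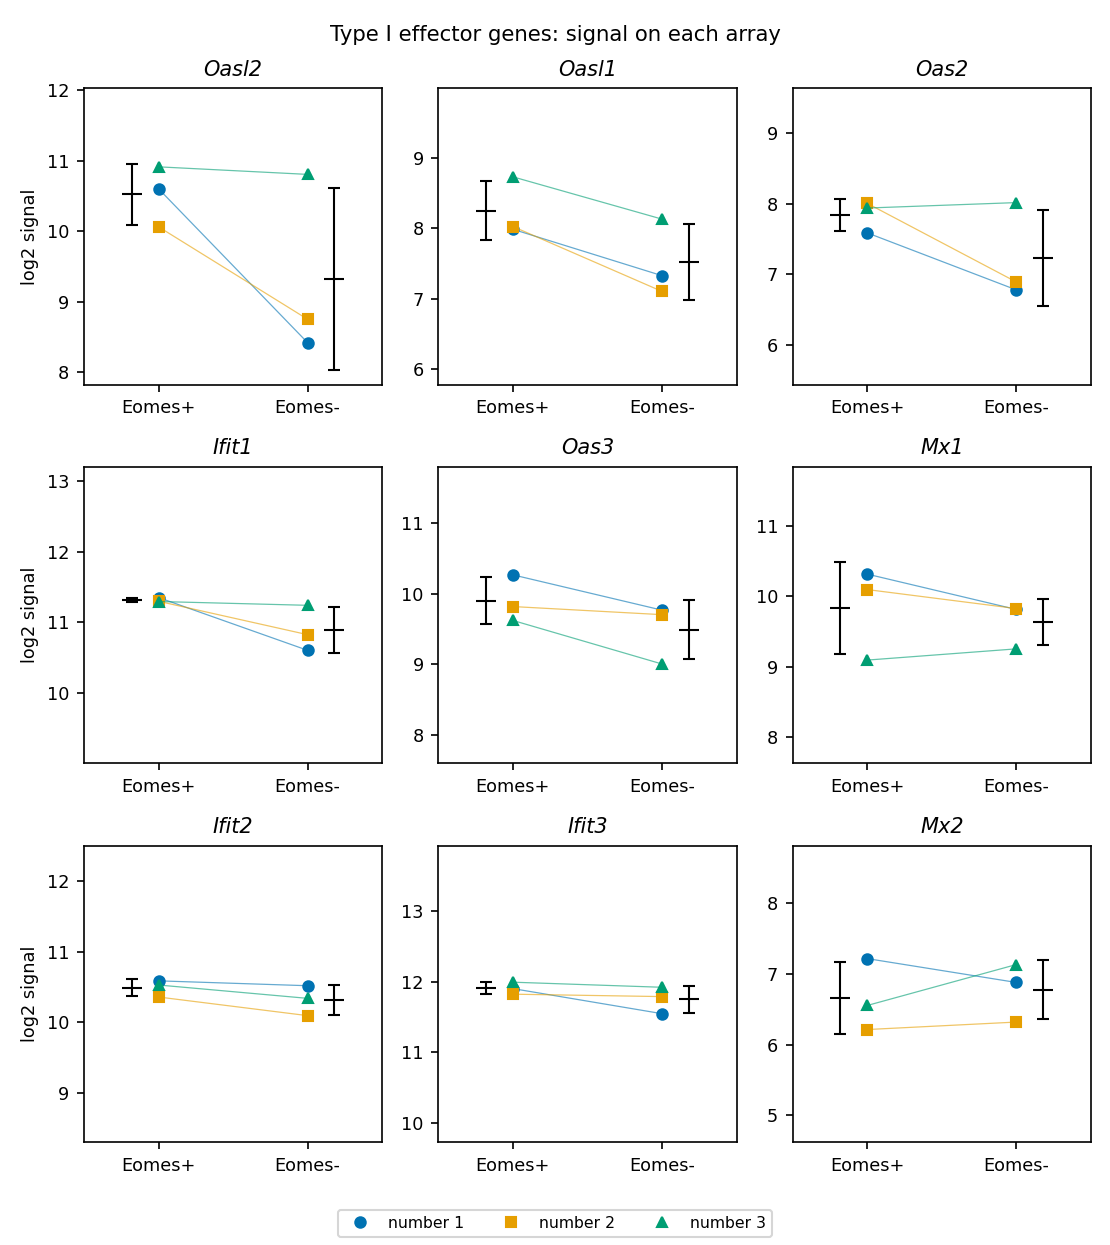
Log2 signal (vertical axes, one panel a gene, with the same span) of the 9 tested type I effectors on each array, Eomes+ cells at the left and Eomes- cells at the right. Points are arrays marked by replicate number, lines join arrays of the same number, and bars are the mean and SD of 3 arrays. For Oasl2 the Eomes- arrays 1 and 2 lie at 8.42 and 8.75 log2 and the other 4 arrays at or above 10.06 log2.

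The 5 GTPases had small mean differences whose direction depended on the arrays included. Gbp2 and Gbp3 are guanylate-binding proteins, and Igtp, Irgm1 and Iigp1 are immunity-related GTPases. Both families have roles in defence against pathogens in vacuoles. All 5 had a slightly higher mean in Eomes+ cells, with a median difference of 0.13 log2 that was well below the spread of the arrays (SD of the list mean 0.59 log2). That median was -0.13 log2 without Eomes+ replicate 3, -0.08 log2 without Eomes- replicate 1 and -0.02 log2 without Eomes- replicate 2, and it was 0.43 log2 without Eomes+ replicate 1 and 0.61 log2 without Eomes- replicate 3. It also rests on the brightest probe set of each gene. Another probe set above the filter had a larger difference for Gbp2 (0.56 log2) and for Iigp1 (0.37 log2). Gbp3, Igtp and Irgm1 had no other probe set. Gbp2 had 11.19, 11.65 and 12.34 log2 in Eomes+ cells, against 10.61, 11.39 and 12.67 log2 in Eomes- cells. Its level followed the number of the array more than the fraction, with a difference of 0.17 log2 (SE 0.55, limma unadjusted p = 0.764). Gbp3 had 10.36, 10.50 and 11.08 log2 in Eomes+ cells, against 10.20, 9.76 and 11.13 log2 in Eomes- cells, and a difference of 0.28 log2 (SE 0.39, limma unadjusted p = 0.489). Again both number 3 arrays lay above the other 4.

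Iigp1 had 9.70, 10.92 and 11.48 log2 in Eomes+ cells, against 9.90, 10.27 and 11.85 log2 in Eomes- cells, the widest range among the GTPases. Both number 3 arrays were highest and both number 1 arrays lowest, and the difference was 0.03 log2 (SE 0.64, limma unadjusted p = 0.969). The other Iigp1 probe set had 9.62, 10.45 and 10.90 log2 in Eomes+ cells, against 9.38, 9.29 and 11.19 log2 in Eomes- cells. There both number 3 arrays were again highest, but Eomes- array 2 was the lowest. Irgm1 had 8.22, 8.15 and 8.87 log2 in Eomes+ cells, against 7.96, 7.93 and 9.06 log2 in Eomes- cells, with the same split of number 3 from the rest and a difference of 0.09 log2 (SE 0.40, limma unadjusted p = 0.822). Igtp, whose promoter holds both motifs, had 12.08, 11.78 and 11.95 log2 in Eomes+ cells, against 11.55, 11.79 and 12.10 log2 in Eomes- cells. Its arrays did not split by number 3, and its difference was 0.13 log2 (SE 0.18, limma unadjusted p = 0.502).

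**Figure D4:**
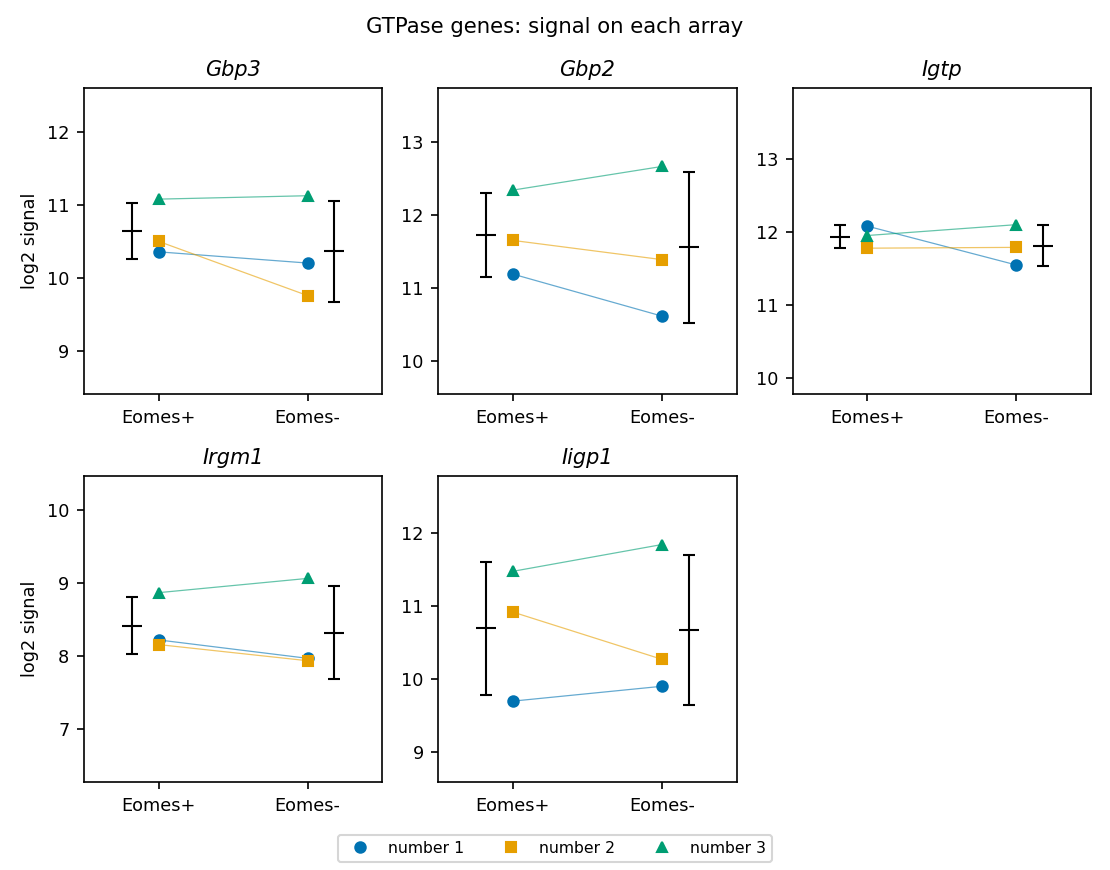
Log2 signal (vertical axes, one panel a gene) of the 5 GTPases on each array, Eomes+ cells at the left and Eomes- cells at the right. Points are arrays marked by replicate number, lines join arrays of the same number, and bars are the mean and SD of 3 arrays. For Gbp2, Gbp3, Irgm1 and Iigp1 both arrays of number 3 lie above the other 4.

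Set side by side, the type I effectors had a median difference of 0.50, 0.27 and 0.07 log2 at numbers 1, 2 and 3, with 9, 8 and 6 of 9 genes higher in Eomes+ cells. The GTPases had 0.25, 0.26 and -0.20 log2, with 4, 4 and 0 of 5 genes higher. The difference between the 2 groups of genes was not tested, and its direction rested on single arrays. Without Eomes+ replicate 1 the median was 0.23 log2 for the type I effectors and 0.43 log2 for the GTPases, and without Eomes- replicate 3 it was 0.24 and 0.61 log2. Their levels across arrays differed as well. The mean of the GTPases was 10.31, 10.60 and 11.14 log2 in Eomes+ cells and 10.04, 10.23 and 11.36 log2 in Eomes- cells, in the same order of arrays as the macrophage and tumour or fibroblast markers within each fraction. The mean of the type I effectors was 9.76, 9.52 and 9.63 log2 in Eomes+ cells and 9.07, 9.03 and 9.54 log2 in Eomes- cells. Over all members, 10 of 32 had both number 3 arrays above the other 4 (21.6% of all genes) and 5 had both below (20.6%). With the mean of those macrophage and tumour or fibroblast markers as a covariate, the median difference was 0.39 log2 for the type I effectors and -0.01 log2 for the GTPases. What part RNA of other cells has in the values of either group was not tested beyond this.

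**Figure D5:**
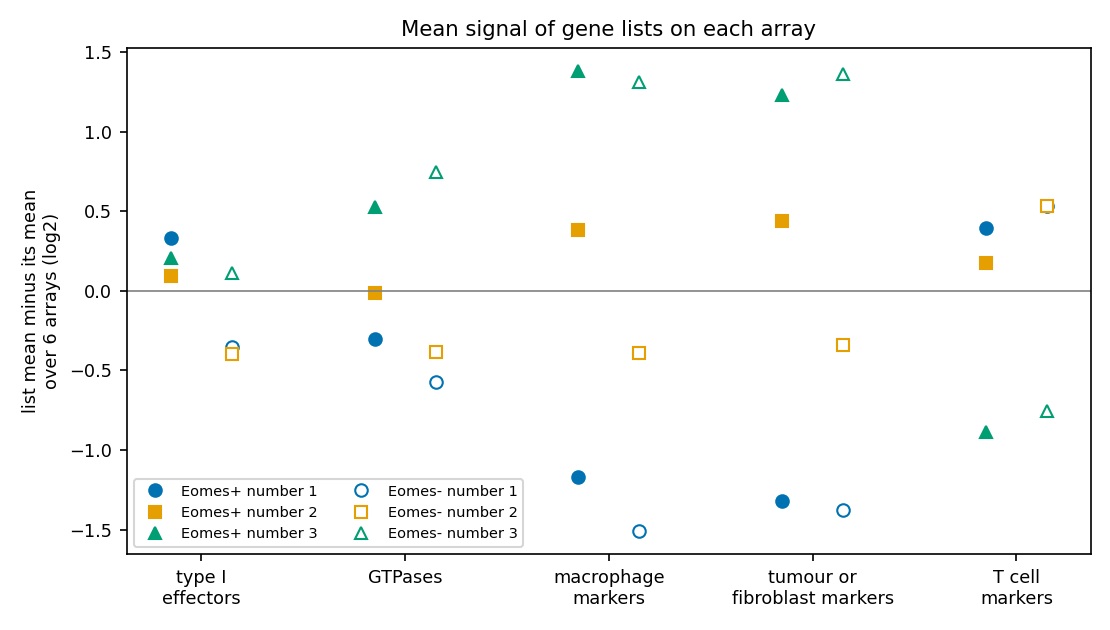
Mean log2 level per array of the type I effectors, the GTPases and the macrophage, tumour or fibroblast and T cell markers, each relative to the mean of its 6 arrays (vertical axis, log2). Points are arrays marked by replicate number, Eomes+ left of Eomes- in each pair. The GTPases and both marker lists of other cells are highest at number 3, where the T cell markers are lowest.

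The 3 transcription factors showed no common direction across numbers. Irf7, which amplifies the type I interferon response, had 9.87, 9.13 and 9.31 log2 in Eomes+ cells, against 9.06, 9.58 and 9.47 log2 in Eomes- cells. Eomes+ array 1 was the highest, the other Eomes+ arrays lay below their Eomes- partners of the same number, and the difference was 0.07 log2 (SE 0.27, limma unadjusted p = 0.818). Stat2, the transactivating subunit of ISGF3, had 8.86, 8.99 and 8.44 log2 in Eomes+ cells, against 8.55, 8.54 and 9.18 log2 in Eomes- cells. It was higher in Eomes+ cells at numbers 1 and 2 and lower at number 3, for a difference of 0.00 log2 (SE 0.29, limma unadjusted p = 0.991). Irf9, the DNA-binding subunit of ISGF3, had 9.38, 9.33 and 9.45 log2 in Eomes+ cells, against 9.30, 8.92 and 9.21 log2 in Eomes- cells. The fractions did not overlap, but the gap was small, at 0.24 log2 (SE 0.20).

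Of the 5 nucleic acid sensors, 4 had a higher mean in Eomes+ cells, with a median difference of 0.16 log2. Ifih1, which encodes the RNA sensor MDA5, had 9.37, 9.26 and 8.98 log2 in Eomes+ cells, against 8.65, 8.90 and 9.04 log2 in Eomes- cells. It was higher in Eomes+ cells at numbers 1 and 2 and not at number 3, and the fractions overlapped. Dhx58, which encodes the related helicase LGP2, had 9.17, 9.03 and 8.19 log2 in Eomes+ cells, against 8.67, 8.91 and 9.64 log2 in Eomes- cells. On this probe set Eomes+ array 3 was the lowest and Eomes- array 3 the highest of the 6. Number 3 alone gave its difference of -0.28 log2 (SE 0.38, limma unadjusted p = 0.487) its sign. Another probe set of Dhx58 above the filter had a difference of -0.16 log2. There the Eomes+ array was lower at numbers 2 and 3, and Eomes- array 3 was not the highest.

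Zbp1, a sensor of Z-form nucleic acid that can start necroptosis, had 12.15, 11.80 and 11.80 log2 in Eomes+ cells, against 11.70, 11.71 and 11.84 log2 in Eomes- cells. Its fractions overlapped, with Eomes+ array 1 apart above the others. The PYHIN family genes Ifi203 and Ifi204 differed from each other. Ifi204 had 8.20, 8.49 and 8.95 log2 in Eomes+ cells, against 6.97, 7.79 and 8.87 log2 in Eomes- cells, a difference of 0.67 log2 (SE 0.51), and both number 3 arrays lay above the other 4. Ifi203 had 8.62, 7.39 and 6.72 log2 in Eomes+ cells, against 7.64, 7.69 and 7.24 log2 in Eomes- cells, and its number 3 arrays lay below the other 4.

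Among the 10 other effectors and regulators tested, 8 had a higher mean in Eomes+ cells, with a median of 0.18 log2. Rsad2, which encodes viperin, a radical enzyme that makes a chain-terminating nucleotide, had 11.52, 11.30 and 11.94 log2 in Eomes+ cells, against 10.89, 11.03 and 11.60 log2 in Eomes- cells. On this brightest probe set the Eomes+ array was higher at every number, by 0.27 to 0.63 log2. The difference was 0.41 log2 (SE 0.25, limma unadjusted p = 0.15). Other probe sets of Rsad2 above the filter had smaller differences, 0.33 and 0.13 log2. On the one with 0.33 log2, Eomes+ array 3 lay slightly below Eomes- array 3 (9.28 against 9.34 log2). Cmpk2, a nucleotide kinase gene next to Rsad2, had 9.31, 8.59 and 8.66 log2 in Eomes+ cells, against 8.43, 8.20 and 8.62 log2 in Eomes- cells. On the probe set used, Cmpk2 was higher in Eomes+ cells at every number, but its probe sets differed in direction. Both had a mean of 8.63 log2, and the difference was 0.44 log2 on the one used and -0.16 log2 on the other. After quantile normalization the brightest probe set was chosen again, and the difference was -0.14 log2, close to that of the other probe set.

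Bst2, which encodes tetherin, an anchor of budding virions that plasmacytoid dendritic cells and many other cells carry, went the other way. It had 9.81, 10.06 and 10.30 log2 in Eomes+ cells, against 10.02, 10.32 and 11.31 log2 in Eomes- cells. The Eomes+ array was lower at each number, most at number 3, with a difference of -0.49 log2 (SE 0.36, limma unadjusted p = 0.214). Isg20, an RNA exonuclease gene, had 11.79, 11.52 and 10.93 log2 in Eomes+ cells, against 11.72, 11.69 and 10.93 log2 in Eomes- cells. Its fractions matched closely at every number, with both number 3 arrays lowest and a difference of -0.03 log2 (SE 0.31, limma unadjusted p = 0.916), which was 0.01 log2 after quantile normalization. Of the dendritic cell markers, 6 of 10 were tested, 4 with a higher and 2 with a lower mean in Eomes+ cells, and 2 of them are known from plasmacytoid dendritic cells. Siglech had 6.72, 6.58 and 6.70 log2 in Eomes+ cells, against 6.63, 6.80 and 6.80 log2 in Eomes- cells, and Tcf4 had 7.78, 9.65 and 10.89 log2 in Eomes+ cells, against 8.77, 9.55 and 11.17 log2 in Eomes- cells. Siglech varied little between arrays, and Tcf4, like Bst2, was highest on the number 3 array of each fraction. So were all 24 tested macrophage and tumour or fibroblast markers, so this order is not particular to markers of plasmacytoid dendritic cells. The part of Siglech- or Tcf4-expressing cells in the Bst2 values was not tested.

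Usp18, which removes Isg15 from proteins and dampens the type I receptor, had 10.30, 9.64 and 9.72 log2 in Eomes+ cells, against 9.59, 9.71 and 9.44 log2 in Eomes- cells. Rtp4, a chaperone of receptors, had 11.17, 11.17 and 10.94 log2 in Eomes+ cells, against 10.71, 10.81 and 11.11 log2 in Eomes- cells. Parp14, an ADP-ribosyltransferase, had 10.74, 10.15 and 10.08 log2 in Eomes+ cells, against 10.08, 10.16 and 10.16 log2 in Eomes- cells. For these 3 genes Eomes+ array 1 was the highest or next to the highest and the fractions overlapped.

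Trim30a, a tripartite motif protein, had 11.35, 10.68 and 10.10 log2 in Eomes+ cells, against 11.07, 10.58 and 9.99 log2 in Eomes- cells. Both number 3 arrays were below the other 4, and the Eomes+ array was higher at each number by 0.10 to 0.28 log2. Another probe set of Trim30a above the filter had a difference of 0.27 log2. There the Eomes+ array was lower at number 2 (9.85 against 9.96 log2). Xaf1, a pro-apoptotic factor, had 12.16, 12.19 and 12.31 log2 in Eomes+ cells, against 12.14, 12.08 and 12.26 log2 in Eomes- cells, and Ifi35 had 12.78, 12.39 and 12.38 log2 in Eomes+ cells, against 12.49, 12.29 and 12.37 log2 in Eomes- cells. The arrays of these last 2 genes lay within a narrow range, and the Eomes+ array was the higher one at every number. Another probe set of Ifi35 differed in the opposite direction. Another probe set of Xaf1, at lower levels, had a difference of 0.48 log2, with the Eomes+ array lower at number 1.

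The rest of the interferon pathway was more evenly divided; whether it differs from the interferon-stimulated genes was not tested. Of 90 further genes listed as ligands, receptors, kinases and factors, sensors and adaptors, negative regulators and targets, 73 were tested, 43 with a higher and 30 with a lower mean, and a median difference of 0.06 log2. None passed after adjustment (0% of all genes), and 2 had an unadjusted p under 0.05 in limma (3.25% of all genes). Both were higher in Eomes+ cells. Ifnar2, a chain of the type I interferon receptor, had 11.63, 11.41 and 11.36 log2 in Eomes+ cells, against 10.93, 11.21 and 11.05 log2 in Eomes- cells. Its fractions were without overlap and had a difference of 0.41 log2 (SE 0.15, limma unadjusted p = 0.0312). Socs3, an inhibitor of cytokine receptor signalling, had 12.22, 11.73 and 11.99 log2 in Eomes+ cells, against 10.22, 9.93 and 11.61 log2 in Eomes- cells, also without overlap and with a difference of 1.39 log2 (SE 0.44, limma unadjusted p = 0.0169).

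The receptor genes otherwise overlapped between fractions. Ifnar1 had 10.22, 10.11 and 9.56 log2 in Eomes+ cells, against 10.48, 10.37 and 9.36 log2 in Eomes- cells, a difference of -0.10 log2 (SE 0.36, limma unadjusted p = 0.779). Ifngr1 had 11.76, 11.30 and 10.75 log2 in Eomes+ cells, against 11.58, 11.33 and 10.17 log2 in Eomes- cells, a difference of 0.24 log2 (SE 0.43, limma unadjusted p = 0.588). In both genes the number 3 arrays were lowest. Ifngr2 ran the other way across arrays, with 7.47, 9.19 and 10.54 log2 in Eomes+ cells, against 7.79, 8.54 and 10.51 log2 in Eomes- cells and a difference of 0.12 log2 (SE 0.96, limma unadjusted p = 0.906), and the receptor chain gene Il10rb had a difference of -0.15 log2 (SE 0.41, limma unadjusted p = 0.726). Of 8 ligand genes 2 were tested. Ifng, the interferon gamma gene, had 11.85, 11.79 and 9.87 log2 in Eomes+ cells, against 12.68, 12.60 and 11.29 log2 in Eomes- cells. The Eomes+ array was lower at every number, with differences of -1.42 to -0.81 log2, both number 3 arrays were low, and the difference was -1.02 log2 (SE 0.63, limma unadjusted p = 0.151). It did not pass after adjustment, and it passed in 2 of the alternative fits, both with the replicate number as a block. Ifna5 had a difference of 0.05 log2 (SE 0.26, limma unadjusted p = 0.858).

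Of 9 kinases, Stat and Irf genes tested, 4 had a higher mean. Irf1, which interferon gamma induces and which activates GTPase genes, had 11.66, 11.78 and 11.87 log2 in Eomes+ cells, against 10.93, 11.08 and 12.04 log2 in Eomes- cells. It was higher in Eomes+ cells at numbers 1 and 2 and lower at number 3, with a difference of 0.42 log2 (SE 0.30, limma unadjusted p = 0.208). Irf8, a factor of myeloid cells that activated CD8 T cells also express, had 9.97, 9.63 and 9.59 log2 in Eomes+ cells, against 11.23, 10.81 and 9.76 log2 in Eomes- cells. Its difference of -0.87 log2 (SE 0.39, limma unadjusted p = 0.0621) was the largest on the lower side among these factors, and Stat3 had a difference of -0.45 log2 (SE 0.32, limma unadjusted p = 0.203). Of 11 sensors and adaptors 9 had a higher mean, with the smallest p for Ikbke, a kinase upstream of interferon genes, at 0.55 log2 (SE 0.23, limma unadjusted p = 0.0522), whose fractions did not overlap. The next were Tlr7 at 0.82 log2 (SE 0.66, limma unadjusted p = 0.255) and Mavs at 0.58 log2 (SE 0.55, limma unadjusted p = 0.328).

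Among 6 negative regulators, 3 had a higher mean. After Socs3 came the phosphatase gene Ptpn2, at 0.25 log2 (SE 0.15, limma unadjusted p = 0.139), and Socs1, at -0.24 log2 (SE 0.24, limma unadjusted p = 0.355). Of 36 further targets tested, 21 had a higher mean, with a median difference of 0.06 log2 and, at the smallest p, Oas1a at 0.27 log2 (SE 0.15, limma unadjusted p = 0.121), Ifi27l2a at -0.22 log2 (SE 0.13, limma unadjusted p = 0.14) and Ddx60 at 0.40 log2 (SE 0.26, limma unadjusted p = 0.179). Of 4 further GTPases tested, 2 had a higher mean. Ifi47 differed by 0.29 log2 (SE 0.16, limma unadjusted p = 0.106), Irgm2 by 0.24 log2 (SE 0.33, limma unadjusted p = 0.485) and Gbp6 by -0.16 log2 (SE 0.32, limma unadjusted p = 0.632).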

How the data were processed

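The 6 arrays were grouped by sample title. The authors deposited log2 values of 45101 probe sets, from 1.68 to 14.95. The submitters' processing notes name Transcriptome Analysis Console and MAS5 without versions or roles, so how probes were summarised is not known here, and the log2 scale was read from the values. Array medians lay between 6.35 and 6.42 log2, which means that any shift shared by most genes is no longer visible.

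Of 45037 probe sets that are not controls, 34945 are annotated to a single gene symbol, 932 to several and 9160 to none, and only the first kind was named. A RefSeq table of GRCm38.p6 supplied current symbols by gene identifier. The filter kept probe sets that exceeded the 40th percentile of the array on 3 or more of the 6 arrays (27766), and the brightest per gene was used (12571 genes). Eomes+ was set against Eomes- by limma 3.58.1 under R 4.3.3 (lmFit, eBayes with an intensity trend, two-sided, Benjamini-Hochberg over all genes, threshold 0.05), tested on simulated data beforehand. The members, lists and tests were chosen with earlier results of these data known. Values per array are given for every member; differences with SE and p for the 5 smallest p in each direction (4 on the lower side), Ifit1, Irf7, Stat2, Mx1 and the GTPases; of the pathway lists, for 6 fixed genes and up to 3 of smallest p each. Some further differences were added after the values were seen.

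The main analysis has no replicate block. The labels do not say what a number shares, and the check of pairing is given with the alternatives. Alternatives covered the block, arrays left out, normalization, filter, pseudocount, probe set choice, variance model, array weights and a covariate for markers of other cells.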

Additional observations from a re-analysis of the deposited data

How the results depend on the processing

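Over 25 alternative settings the number of members with a higher mean in Eomes+ cells ranged from 22 to 30, their median difference from 0.08 to 0.31 log2 and that of the type I effectors from 0.20 to 0.48 log2. No member passed limma under any of them except Oasl2 (1.75 log2, adjusted p = 0.0462) with the replicate block and without both arrays of number 3, a setting chosen after seeing the data, which gave 1 member among 68 genes called. Over all genes the count was 0 as reported (409 at an unadjusted p under 0.05), 17 with the replicate block, 253 with array weights, 8 with the markers of other cells as a covariate and 18 with that covariate and the block. In a check of pairing, the deviations of same-numbered arrays from their group means correlated at 0.60, 0.0989 and 0.63 over all probe sets. The rule asked for 0.1 in all 3, which number 2 missed. The main fit did not take the numbers as pairs, because the labels do not say what a number shares. Over filtered probe sets Eomes- array 2 correlated better with Eomes+ array 1 (0.37) than with its own number. Arrays of unlike numbers 1 and 3 correlated there at -0.69 and -0.63. The deviations within a fraction cancel out, so where arrays 1 and 3 lie apart, array 2 can stay near the mean. Its correlation can then be small in true pairs too, and the check cannot decide whether the numbers are pairs. With the block, 6 members had an unadjusted limma p under 0.05, as did 1276 of 12571 genes: Oasl2 (0.0103), Rsad2 (0.00916), Oasl1 (0.0186), Ifit1 (0.0263) and Ifi204 (0.0499) on the higher side and Bst2 (0.0387) on the lower. Eomes passed with the block (adjusted p = 0.0167), array weights (0.0273), the covariate (0.0248), covariate and block (0.0126) and the block without number 3 (0.0112). Ifng had an unadjusted p of 0.000136 and an adjusted limma p of 0.0613 with the block, and it passed with covariate and block (-1.22 log2, adjusted p = 0.033) and with the block without number 3 (-0.82 log2, adjusted p = 0.034). The GTPase median was -0.01 log2 with the covariate and -0.04 log2 with covariate and block, and from -0.13 (without Eomes+ replicate 3) to 0.61 (without Eomes- replicate 3) log2 with arrays left out. The pathway median was -0.04 log2 with array weights, -0.02 log2 with the block and without number 1, and from -0.07 (without Eomes+ replicate 1) to 0.15 (without Eomes+ replicate 3) log2 with arrays left out. Of the 32 members 16 kept their direction in every setting and 16 did not, and the causes were not tested. The values that changed sign are given next in log2. With the block and without both arrays of number 1, Gbp2 was -0.03, Igtp was -0.08, Irf7 was -0.30, Stat2 was -0.15, Ifi203 was -0.41 and Parp14 was -0.04. Without those of number 2, Iigp1 was -0.29, Stat2 was -0.22, Isg20 was 0.03 and Ifngr2 was -0.14. Without those of number 3, Mx2 was 0.12 and Dhx58 was 0.31. After quantile normalization, where the brightest probe set of a gene was chosen again, Cmpk2 was -0.14 and Isg20 was 0.01. With the mean of a gene's probe sets, Ifnar1 was 0 and Ifngr2 was -0.03. Without probe sets open to cross-hybridisation, Ifi35 was -0.34. With array weights, Irf7 was -0.30, Dhx58 was 0.04, Ifi203 was -0.22 and Ifngr1 was -0.02. With the markers of other cells as a covariate, Gbp2 was -0.02, Irgm1 was -0.01, Iigp1 was -0.20, Stat2 was -0.02, Isg20 was 0.07, Ifnar1 was 0 and Ifngr2 was -0.23. With that covariate and the block, Gbp3 was -0.04, Irgm1 was -0.04, Iigp1 was -0.40, Stat2 was -0.40, Isg20 was 0.04, Ifnar1 was 0.05 and Ifngr2 was -0.19. With 1 array or both arrays of a number left out, the differences ranged from -0.67 to 0.31 for Dhx58, -0.30 to 0.73 for Gbp2, -0.02 to 0.67 for Gbp3, -0.47 to 0.48 for Ifi203, -0.46 to 0.10 for Ifnar1, -0.19 to 0.52 for Ifngr1, -0.62 to 0.91 for Ifngr2, -0.08 to 0.27 for Igtp, -0.36 to 0.61 for Iigp1, -0.30 to 0.32 for Irf7, -0.13 to 0.46 for Irgm1, -0.29 to 0.21 for Isg20, -0.04 to 0.57 for Mx1, -0.39 to 0.12 for Mx2, -0.04 to 0.32 for Parp14, -0.22 to 0.38 for Stat2 and -0.15 to 0.47 for Trim30a. The Bst2 difference ranged from -0.75 to -0.11 log2 and that of Oasl2 from 0.71 to 1.94 log2 over all settings. The number of arrays limits what can be shown for differences of this size.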

Other observations

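The Schlafen genes, interferon-inducible regulators of lymphocyte quiescence and of translation, followed the number of the array more than the fraction. Slfn1 had 11.74, 11.02 and 9.74 log2 in Eomes+ cells, against 11.25, 11.14 and 9.63 log2 in Eomes- cells. Slfn2 had 11.26, 10.55 and 9.87 log2 in Eomes+ cells, against 11.11, 11.13 and 10.25 log2 in Eomes- cells. In both genes the 2 arrays of number 3 were the lowest, as for the T cell markers, and the differences between fractions were 0.16 log2 (SE 0.63) and -0.27 log2 (SE 0.41). Slfn5 and Slfn8, which differed by -0.06 log2 (SE 0.26) and -0.02 log2 (SE 0.24), also had both number 3 arrays below the other 4. Of 36 further targets of interferon tested, 20 had both number 3 arrays below the other 4 (20.6% of all genes), 7 had both above (21.6% of all genes) and the rest had neither. These genes were chosen after their values were seen, and no cause was tested.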
